A study of Mus musculus with 27 samples.

Results

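The comparison described here asks by how much the transcriptional response of mouse embryonic stem cells to depletion of SPEN during Xist induction differed between a line that carried a tethered copy of the SPOC domain of SPEN and a line that did not. It used 18 of the 27 RNA sequencing libraries of the series. They were chosen by their labels as all replicates given doxycycline, alone or with auxin. The 9 untreated libraries did not enter.

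All cells were TX1072, hybrid stem cells whose parents were BL/6J and CAST-EiJ mice, and all carried SPEN fused to an auxin-inducible degron (SPEN-AID). The GFP line also expressed BglG-GFP and the SPOC line BglG-GFP-SPOC. Dox groups received doxycycline at 1 ug/mL for 24 h. Dox+Auxin groups received auxin for 12 h and then doxycycline at 1 ug/mL with auxin for 24 h. The GFP line had 4 libraries in each treatment and the SPOC line 5, although the series' design text counts 4 biological replicates. Every group therefore had doxycycline and the degron. Because no group had auxin without doxycycline, effects of SPEN loss that need Xist and those that do not cannot be told apart. No cells without the degron received auxin, so effects of SPEN loss and of auxin itself cannot be told apart. The labels do not say whether each line was 1 clone, so the SPOC fusion and other differences between the lines cannot be told apart either.

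Xist is a long non-coding RNA that spreads over the X chromosome it is made from and starts its silencing. SPEN is a repressor protein that binds Xist RNA through RNA recognition motifs near its N-terminus, and its C-terminal SPOC domain contacts the NCoR and SMRT co-repressors, which work with the deacetylase HDAC3. In stem cells of this kind doxycycline switches on Xist from 1 of the X chromosomes, and X-linked transcripts fall as silencing proceeds. BglG is a bacterial antiterminator that binds a specific RNA stem loop and can carry a fused protein to an RNA that holds such loops. The labels do not state whether Xist held them in these cells.

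Depth ranged from 29034115 to 42531555 counts per library. Markers of embryonic stem cells summed to between 5540 and 6610 CPM (counts of a gene relative to the scaled library total) in every library, with no marker under 1 CPM. Of the markers of primitive endoderm, the summed level was 7.71 to 12.5 CPM, with Gata4, Gata6, Pdgfra, Foxa2 and Cubn under 1 CPM. Feeder fibroblast markers summed to 28.6 to 44.5 CPM, trophoblast markers to 16.0 to 35.5 CPM, neural markers to 90.2 to 142 CPM and mesoderm markers to 23.4 to 36.6 CPM. Several sums moved with treatment. In the GFP line the trophoblast sum was higher with Dox+Auxin (29.3 to 35.5 CPM, against 20.3 to 23.1 CPM with Dox), as was the mesoderm sum (31.2 to 36.6 against 23.4 to 25.6 CPM), and the stem cell sum was lower (5540 to 5802 against 6238 to 6465 CPM). In the SPOC line the treatments overlapped for all 3: trophoblast 23.2 to 28.8 against 16.0 to 23.3 CPM, mesoderm 25.8 to 34.5 against 24.7 to 30.7 CPM and stem cell 5800 to 6281 against 6194 to 6610 CPM. The feeder sum was lower with Dox+Auxin in both lines, at 31.2 to 33.8 against 40.9 to 44.5 CPM (GFP line) and 28.6 to 36.1 against 37.0 to 43.2 CPM (SPOC line). The part of these cell types in the results was not tested. As these are bulk samples, fewer cells with a transcript and less transcript per cell cannot be told apart.

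To show where 2 kinds of X-linked pattern sit, RefSeq promoter windows of Rlim, Ftx and Firre are given, each from 250 bases before to 50 bases after the gene's start in build GRCm38.p6. The first 2 are genes whose levels were similar in the lines with Dox and parted with Dox+Auxin, and the third did the reverse. Capitals mark CG dinucleotides, which read alike on both strands. The motifs TGGGAA and GCGTG were also searched in the promoter windows of tested genes and are not marked here. Rlim lies at chrX:103981236-103981535, Ftx at chrX:103623705-103624004 and Firre at chrX:50635272-50635571, all on the minus strand.
Rlim: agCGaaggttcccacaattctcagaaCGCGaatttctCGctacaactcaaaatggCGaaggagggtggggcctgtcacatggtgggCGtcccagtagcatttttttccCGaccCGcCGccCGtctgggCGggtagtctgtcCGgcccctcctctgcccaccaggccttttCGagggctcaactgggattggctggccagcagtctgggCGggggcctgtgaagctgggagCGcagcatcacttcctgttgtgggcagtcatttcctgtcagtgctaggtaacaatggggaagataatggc
Ftx: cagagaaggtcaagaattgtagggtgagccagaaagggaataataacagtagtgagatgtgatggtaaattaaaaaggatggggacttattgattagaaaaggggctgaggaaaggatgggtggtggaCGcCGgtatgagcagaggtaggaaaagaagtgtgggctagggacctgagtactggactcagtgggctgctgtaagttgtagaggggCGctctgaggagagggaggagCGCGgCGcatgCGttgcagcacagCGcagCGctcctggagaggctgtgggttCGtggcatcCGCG
Firre: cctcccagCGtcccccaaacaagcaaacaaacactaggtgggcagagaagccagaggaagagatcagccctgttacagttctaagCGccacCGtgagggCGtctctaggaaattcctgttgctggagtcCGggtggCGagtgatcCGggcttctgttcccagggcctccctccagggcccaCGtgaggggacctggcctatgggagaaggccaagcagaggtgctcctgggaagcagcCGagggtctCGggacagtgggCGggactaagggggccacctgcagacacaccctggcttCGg
The Rlim window held 15 CG dinucleotides, and the Ftx and Firre windows 12 each. At least 1 was present in 99.3% of the 12015 promoter windows of tested genes, with a median of 20. X-linked genes with a smaller response in the SPOC line had a median of 15 in 246 windows, and those whose responses were not called different a median of 12 in 247 windows. At 1 CPM or more the median was 15 in both sets, in 239 and 182 windows.

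X-linked genes rose less upon Dox+Auxin in the SPOC line than in the GFP line. With edgeR's quasi-likelihood test and a Benjamini-Hochberg adjusted p under 0.05, the response (Dox+Auxin against Dox) was lower in the SPOC line for 292 of the 698 tested X-linked genes (Xist and Tsix left out), or 41.8%, and higher for 2, or 0.287%. Among 17297 autosomal genes it was lower for 459, or 2.65%, and higher for 524, or 3.03%. Over all 18019 genes tested, 751 (4.17%) were lower and 526 (2.92%) higher. The median line difference, the log2 fold change in the SPOC line minus that in the GFP line, was -0.35 over X-linked genes, with quartiles of -0.60 and -0.16, and -0.00 over autosomal genes. Of the X-linked genes, 607 (87.0%) had the smaller value in the SPOC line, against 50.1% of autosomal genes. Leaving out 1 library at a time left between 257 and 294 X-linked genes lower. The number of all genes called higher was less steady, at 333 without SPOC Dox replicate 2, 343 without GFP Dox replicate 4, 310 without GFP Dox+Auxin replicate 1, 328 without GFP Dox+Auxin replicate 2 and 836 without GFP Dox+Auxin replicate 4. Between 0 and 3 X-linked genes were called higher in these fits, so that count rests on single libraries: it was 0 without GFP Dox replicate 4 or GFP Dox+Auxin replicate 1 or 2, and 1 without any of SPOC Dox replicates 1, 2, 4 and 5, SPOC Dox+Auxin replicates 1, 2 and 5, GFP Dox replicates 1 and 2 and GFP Dox+Auxin replicate 3.

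Within each line alone, Dox+Auxin raised X-linked transcripts. In the GFP line 455 X-linked genes (65.2%) rose and 32 (4.58%) fell, with a median log2 fold change of 0.51. In the SPOC line 284 (40.7%) rose and 60 (8.6%) fell, with a median of 0.15. Autosomal genes showed no such lean: 3787 (21.9%) rose and 4139 (23.9%) fell in the GFP line, and 2497 (14.4%) rose and 2727 (15.8%) fell in the SPOC line. Of the 292 X-linked genes with a lower response in the SPOC line, 196 rose in both lines, 81 rose in the GFP line and were not called in the SPOC line, and 7 rose in the GFP line and fell in the SPOC line. A further 6 were not called in the GFP line and fell in the SPOC line, and 2 fell in both.

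**Figure D1:**
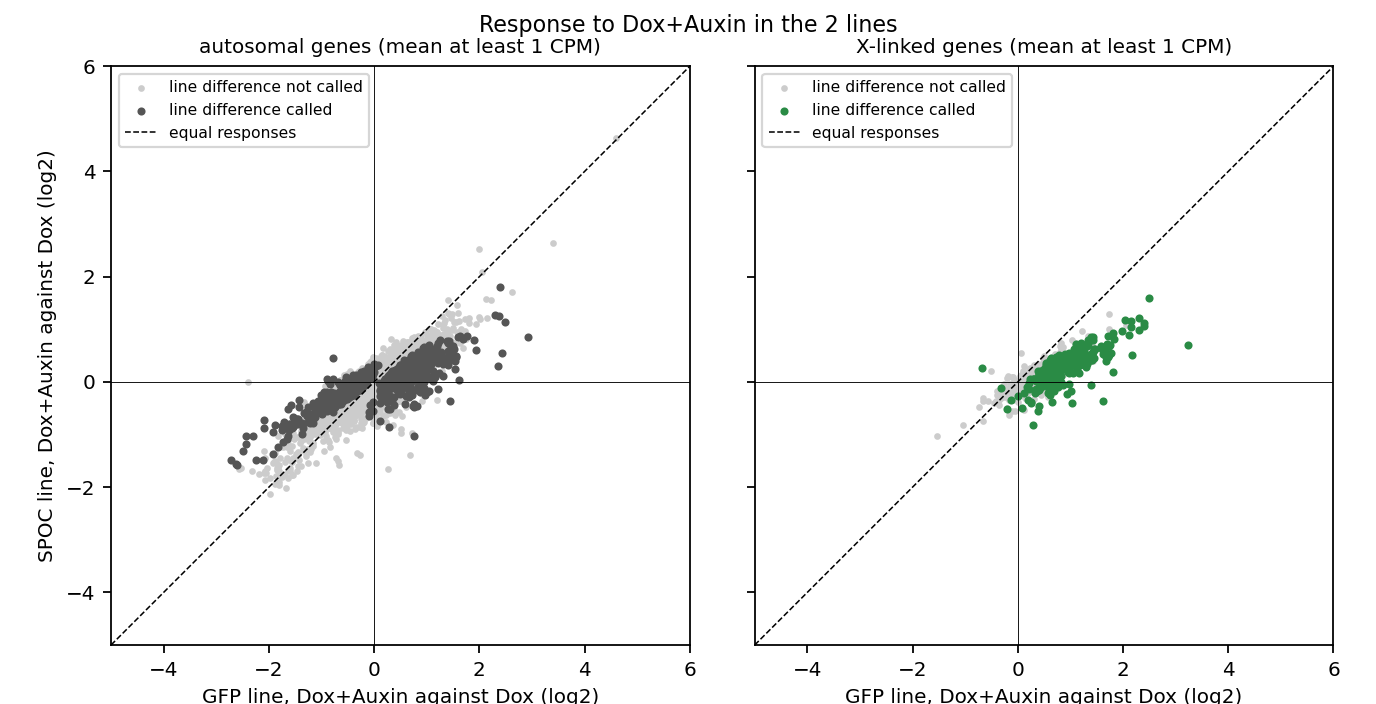
Log2 fold change of each gene upon Dox+Auxin relative to Dox, with the GFP line on the horizontal and the SPOC line on the vertical axis, for autosomal genes on the left and X-linked genes on the right, at a mean of 1 CPM or more; coloured points passed the test of the line difference. Called X-linked points lie below the dashed line of equal responses except for 2, while called autosomal points lie on both sides of it.

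Response size was smaller in the SPOC line in both gene sets. Among called genes the fold change was larger in size in the GFP line for 283 of 294 X-linked genes and for 933 of 983 autosomal genes (94.9%); those called in either direction were 42.1% of X-linked and 5.68% of autosomal genes, and 7.09% of all. Across the 13609 autosomal genes at 1 CPM or more, the least-squares slope of the SPOC response on the GFP response was 0.57 with a Pearson's r of 0.83, and across 544 X-linked genes it was 0.48 with r = 0.80. The slopes describe these libraries: genes are not independent replicates, error in the GFP values lowers them, and the libraries of each line are shared by all genes. Regressing the other way gave 1.21 for autosomal and 1.35 for X-linked genes.

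The line difference came from both treatments. With Dox, X-linked genes were higher in the SPOC line than in the GFP line, with a median log2 difference of 0.21: 251 were called higher (36%) and 6 lower (0.86%), beside 3.65% and 5.21% of autosomal genes. With Dox+Auxin the order was turned, with a median of -0.10, 234 called lower (33.5%) and 30 higher (4.3%), beside 12.4% and 10.4% of autosomal genes. Of the 292 genes, 112 differed between the lines with Dox+Auxin only, 88 with Dox only and 81 with both, in these directions. Another 9 differed in neither treatment, and 2 were higher in the SPOC line with both.

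X-linked output was summarised for each library as the median over 544 X-linked genes minus the median over 13609 autosomal genes of log2 CPM, after each gene's mean over the 18 libraries had been subtracted. With Dox it was -0.263, -0.316, -0.263 and -0.271 in GFP replicates 1 to 4, and -0.0833, -0.0864, -0.0915, -0.0785 and -0.0897 in SPOC replicates 1 to 5. With Dox+Auxin the GFP libraries gave 0.246, 0.234, 0.248 and 0.251, and the SPOC libraries 0.114, 0.100, 0.115, 0.100 and 0.0797. The 4 groups did not overlap, with both SPOC groups lying between the GFP groups. Group means were -0.278 ± 0.0254 (SD, n = 4) for GFP Dox, -0.0859 ± 0.00518 (SD, n = 5) for SPOC Dox, 0.102 ± 0.0144 (SD, n = 5) for SPOC Dox+Auxin and 0.244 ± 0.00755 (SD, n = 4) for GFP Dox+Auxin. The difference between the 2 rises was -0.335, beside a pooled SD within groups of 0.0147.

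**Figure D2:**
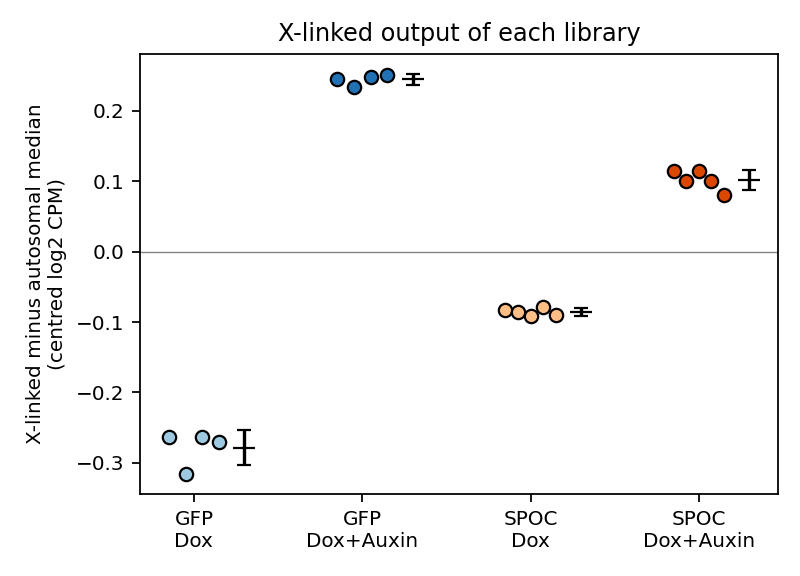
X-linked output of each library (points; log2, X-linked minus autosomal median of centred CPM) by line and treatment, with the mean and SD of each group beside the points. The 4 groups are separate, from -0.316 at the lowest to 0.251 at the highest, and the SPOC groups sit inside the GFP groups.

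Xist itself differed between the lines. In GFP Dox libraries it stood at 750.5, 924, 916 and 784 CPM, and in SPOC Dox libraries at 419, 410.0, 459.9, 335 and 308 CPM. With Dox+Auxin it stood at 382, 629, 448 and 542 CPM in the GFP line and at 337, 342, 412, 290.5 and 306 CPM in the SPOC line. The lines did not overlap with Dox and did with Dox+Auxin. Xist fell by 0.76 on the log2 scale in the GFP line (edgeR adjusted p = 0.0013), and its log2 fold change in the SPOC line was -0.19 (edgeR adjusted p = 0.348). The line difference of 0.56 ± 0.22 (SE) was not called (edgeR adjusted p = 0.145). The lower Xist level of the SPOC line with Dox went with a higher X-linked output there. With Dox+Auxin its mean Xist level was also the lower (338 against 500 CPM), but its X-linked output was lower too (0.102 against 0.244). The part of the Xist level in the X-linked line difference was not tested. Tsix, the antisense partner of Xist, had a line difference of 0.11 (edgeR adjusted p = 0.861), which was -0.00 without GFP Dox+Auxin replicate 4. No source used here says whether strand entered the counting, so reads of Xist and Tsix where they overlap cannot be told apart.

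Spen transcripts rose in both lines, by 2.12 on the log2 scale in the GFP line (edgeR adjusted p = 1.46e-08) and by 1.57 in the SPOC line (edgeR adjusted p = 3.09e-07). Values were 204, 216, 194 and 179 CPM in GFP Dox, 781, 861, 637 and 1160.0 CPM in GFP Dox+Auxin, 370.1, 356, 362, 352 and 329 CPM in SPOC Dox, and 983, 979, 967, 1246 and 1076 CPM in SPOC Dox+Auxin. The lines did not overlap with Dox and overlapped with Dox+Auxin. As differences of group means, the rises were 662 CPM and 696 CPM. The line difference on the log2 scale, -0.55 ± 0.19 (SE), was not called (edgeR adjusted p = 0.0964) but depended on the fit. It was called without GFP Dox+Auxin replicate 3 (-0.67, edgeR adjusted p = 0.0218), without robust estimation (edgeR adjusted p = 0.0377), in both fits that took in untreated libraries (edgeR adjusted p = 0.0348 and 0.0387) and with the DESeq2 Wald test (adjusted p = 0.0491). Auxin acts on the protein, so the transcript is no check of depletion. Whether reads of the SPOC fusion were counted as Spen was not tested.

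The X-inactivation centre, the region around Xist, held some strongly negative line differences, but its share of lower genes was near that of the X chromosome. Of 11 tested genes of the X-inactivation centre, Xist and Tsix among them, 5 were lower and 0 higher. Over the X chromosome, with Xist and Tsix left out, 41.8% were lower. Besides Xist and Tsix, those not called were Cdx4 (-0.59), Chic1 (-0.05), Nap1l2 (0.35) and Tsx (-1.17). Rlim, an X-linked ubiquitin ligase that promotes Xist expression, stood at 98.0, 91.7, 93.7 and 93.9 CPM in GFP Dox and 405, 419, 369.5 and 436 CPM in GFP Dox+Auxin. SPOC libraries went from 114, 119, 88.3, 117 and 103 CPM to 220.4, 209, 166, 229 and 178 CPM. The lines overlapped with Dox and were apart with Dox+Auxin, the GFP line being higher. The line difference of Rlim was -1.22 ± 0.14 (SE; edgeR adjusted p = 4.24e-05), from rises of 2.11 and 0.89.

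Ftx, a non-coding gene upstream of Xist, showed the largest line difference of the X-linked genes selected by size and steadiness, at -2.54 ± 0.36 (SE; edgeR adjusted p = 7.87e-05). Its levels were low: 0.476, 0.264, 0.670 and 0.545 CPM in GFP Dox against 4.30, 4.70, 5.38 and 3.93 CPM in GFP Dox+Auxin. SPOC libraries held 0.413, 0.640, 0.320, 0.365 and 0.334 CPM with Dox and 0.928, 0.674, 0.625, 0.763 and 0.403 CPM with Dox+Auxin. The 4 GFP Dox+Auxin libraries stood alone, while the other groups overlapped. Uprt, also on the list, went from 3.39 to 7.61 CPM on average in the GFP line and from 3.65 to 4.09 CPM in the SPOC line (edgeR adjusted p = 2.75e-05).

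Firre, an X-linked long non-coding RNA gene and a known escapee of X inactivation, showed the other pattern. It stood at 17.2, 15.9, 17.9 and 16.3 CPM in GFP Dox and at 31.3, 34.0, 31.6, 30.2 and 30.9 CPM in SPOC Dox. With Dox+Auxin it reached 95.7, 110.5, 92.3 and 81.5 CPM in the GFP line and 103, 107, 100.2, 82.6 and 82.2 CPM in the SPOC line. The lines did not overlap with Dox, where the SPOC line was higher by 0.91 on the log2 scale, and overlapped with Dox+Auxin. The line difference was -0.91 ± 0.13 (SE; edgeR adjusted p = 0.000187).

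The escape list as a whole, genes reported to be transcribed from an inactive X, had 7 of 18 tested members lower and 1 higher, beside 41.8% and 0.287% over the X chromosome, with a median of -0.18 beside -0.35 for all X-linked genes. Lower members included Shroom4 (-0.60) and Sms (-0.51), the spermine synthase gene. Kdm6a, a histone demethylase gene, was the higher one. It was at 158, 169, 168 and 173 CPM in GFP Dox, 134, 131, 126 and 146 CPM in GFP Dox+Auxin, 175, 171, 172, 174 and 171 CPM in SPOC Dox, and 155, 154, 159, 165 and 161 CPM in SPOC Dox+Auxin. It fell in both lines, to a lower range in the GFP line. Its line difference was 0.20 ± 0.051 (SE; edgeR adjusted p = 0.0202), and the adjusted p was 0.0554, 0.0511, 0.0555 and 0.0509 without GFP Dox replicate 4 and GFP Dox+Auxin replicates 1, 2 and 3. The demethylase gene Kdm5c (-0.13, edgeR adjusted p = 0.202; called at 0.0307 without GFP Dox+Auxin replicate 3) and the helicase gene Ddx3x (-0.07, edgeR adjusted p = 0.363) were not called.

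X-linked housekeeping genes had 11 of 25 members lower and 0 higher, a share near the 41.8% lower over the X chromosome, with a median line difference of -0.23 beside -0.35 for all X-linked genes. Of the 25, 22 rose in GFP cells and 15 in SPOC cells, beside 65.2% and 40.7% over the X chromosome. Hprt, a purine salvage enzyme gene, stood at 162, 159.8, 161 and 162 CPM in GFP Dox and 242, 230.5, 264 and 228 CPM in GFP Dox+Auxin. SPOC libraries had 171, 175, 185, 174 and 179.5 CPM with Dox and 198, 189.5, 203, 181 and 199.8 CPM with Dox+Auxin. The GFP line was the lower with Dox and the higher with Dox+Auxin, with no overlap in either, and the line difference was -0.45 ± 0.056 (SE; edgeR adjusted p = 1.83e-05). Lamp2, a lysosomal membrane protein gene, Pdha1, a pyruvate dehydrogenase subunit gene, and Rbmx, an RNA-binding protein gene, had line differences of -0.55, -0.52 and -0.65. Magt1 rose strongly in both lines, by 1.11 and 0.71, and still differed by -0.40 (edgeR adjusted p = 4.18e-05).

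X-linked regulators of stem cell state had 11 of 16 tested members lower and 0 higher, beside 41.8% and 0.287% over the X chromosome, with a median of -0.32 beside -0.35. Sox3, a transcription factor gene of neural and primed cells, was at 6.84, 7.23, 7.56 and 6.63 CPM in GFP Dox and 19.2, 19.5, 19.5 and 17.4 CPM in GFP Dox+Auxin. It was at 10.2, 11.2, 10.3, 9.97 and 11.8 CPM in SPOC Dox and 17.0, 14.8, 12.7, 12.4 and 15.0 CPM in SPOC Dox+Auxin. As for Hprt, the SPOC groups lay between the GFP groups without overlapping them, and the line difference was -0.99 ± 0.12 (SE; edgeR adjusted p = 7.09e-06). Within the SPOC line the treatments were apart for Sox3 but overlapped for Hprt. Nr0b1, a nuclear receptor gene of naive cells, was not called (0.15, edgeR adjusted p = 0.328), having fallen in both lines.

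The other X-linked genes taken by size were Ripply1, Platr21, Armcx3, Hs6st2, Rab39b, Efnb1, Magea4 and Magea5, with line differences from -1.99 (Magea4) to -1.23 (Magea5). They were the most negative among genes that were called in the fit to all libraries and in all 18 fits that left 1 out, at a mean of at least 1 CPM. Of 653 such genes, 223 were X-linked and lower, 183 autosomal and lower and 247 autosomal and higher, and 0 were X-linked and higher. Ripply1, a transcriptional co-repressor gene of somite formation, stood at 4.76, 4.41, 4.91 and 2.95 CPM in GFP Dox and 21.9, 18.6, 20.4 and 16.3 CPM in GFP Dox+Auxin. Its SPOC libraries held 3.99, 6.04, 3.44, 5.42 and 5.26 CPM with Dox and 8.24, 7.33, 6.43, 6.11 and 6.17 CPM with Dox+Auxin. The lines overlapped with Dox and parted with Dox+Auxin, as for Rlim, and the line difference was -1.67 ± 0.22 (SE; edgeR adjusted p = 6.8e-05). Rab39b, a vesicle-trafficking GTPase gene, resembled Firre: it was higher in the SPOC line with Dox, by 1.14 on the log2 scale, and had a difference of -0.19 with Dox+Auxin. Magea4 and Magea5 belong to a multicopy family, and their counts are uncertain where copies share reads.

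**Figure D3:**
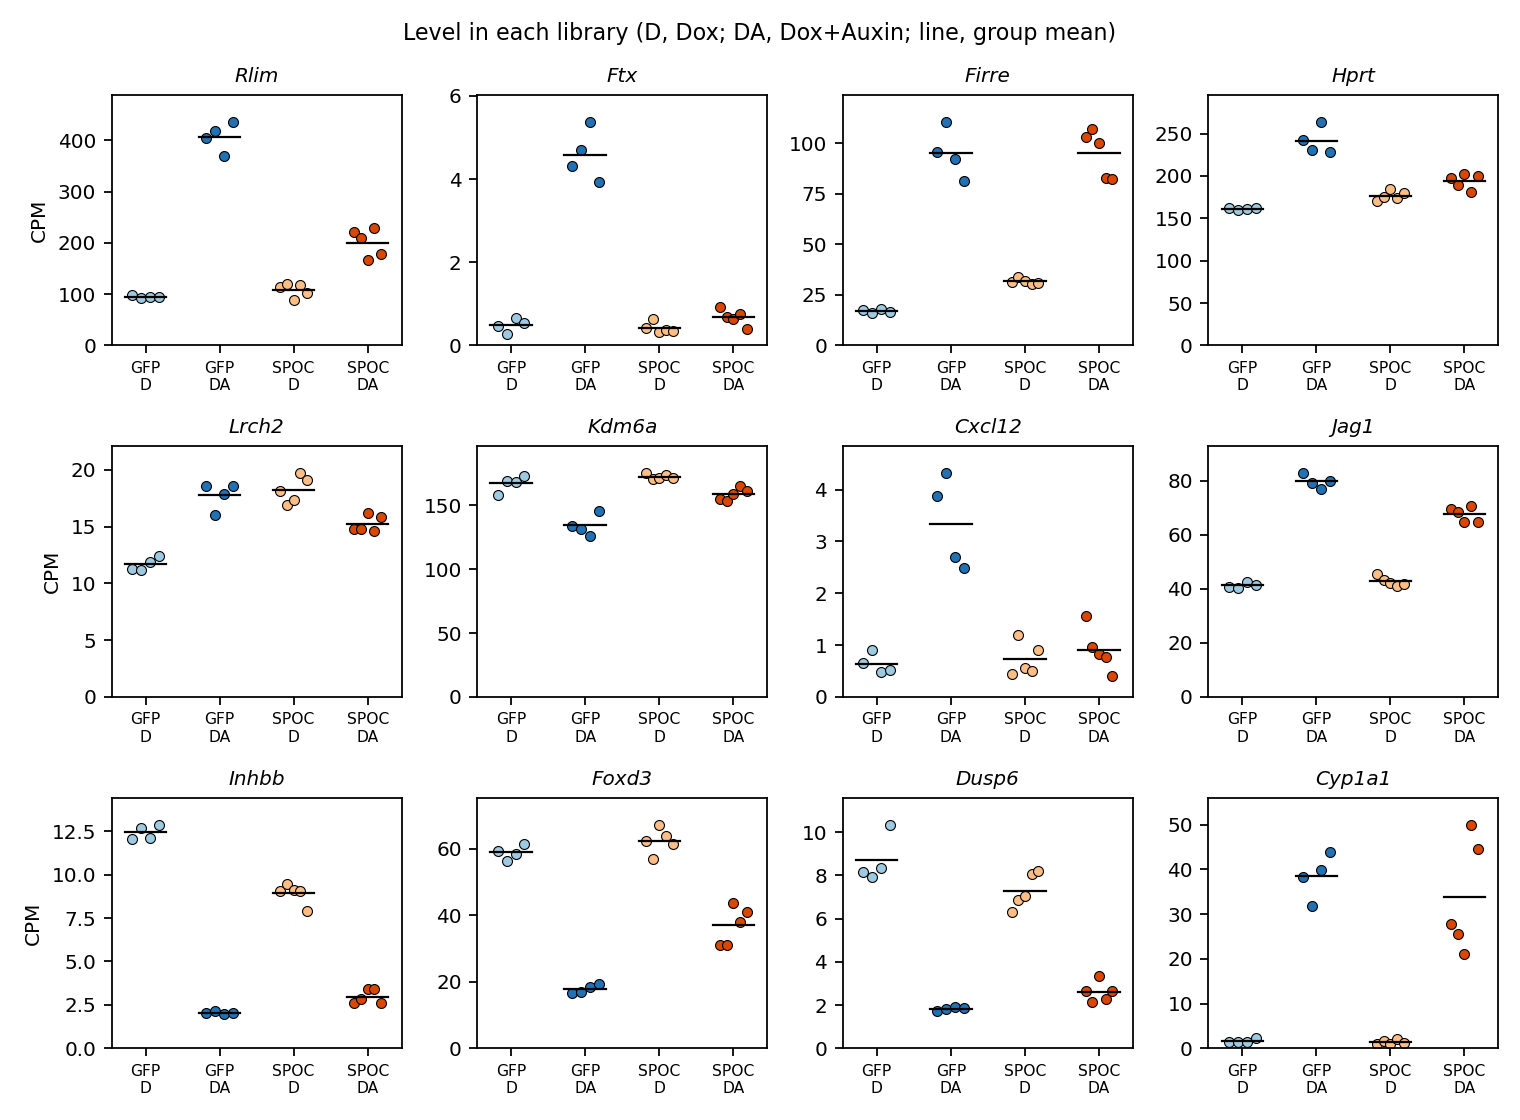
Level (CPM, linear axis from 0) of 12 genes in each of the 18 libraries, by line and treatment, with group means as lines. Rlim, Ftx and Cxcl12 part the lines with Dox+Auxin, Firre parts them with Dox, and Cyp1a1 rises in both with no line difference called.

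The line difference was negative along the whole X chromosome when taken by window. In windows of 20 Mb counted from the start of Xist, 9 windows held 20 genes or more, with medians of the line difference between -0.26 and -0.47. The share of genes called lower ran from 33.3% in the window from 0 to 20 Mb to 55.4% in the window from 20 to 40 Mb. The median response in these windows was 0.37 to 0.71 in the GFP line and 0.07 to 0.25 in the SPOC line. No autosome had such a share: the percentage lower was between 1.45 and 3.92.

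**Figure D4:**
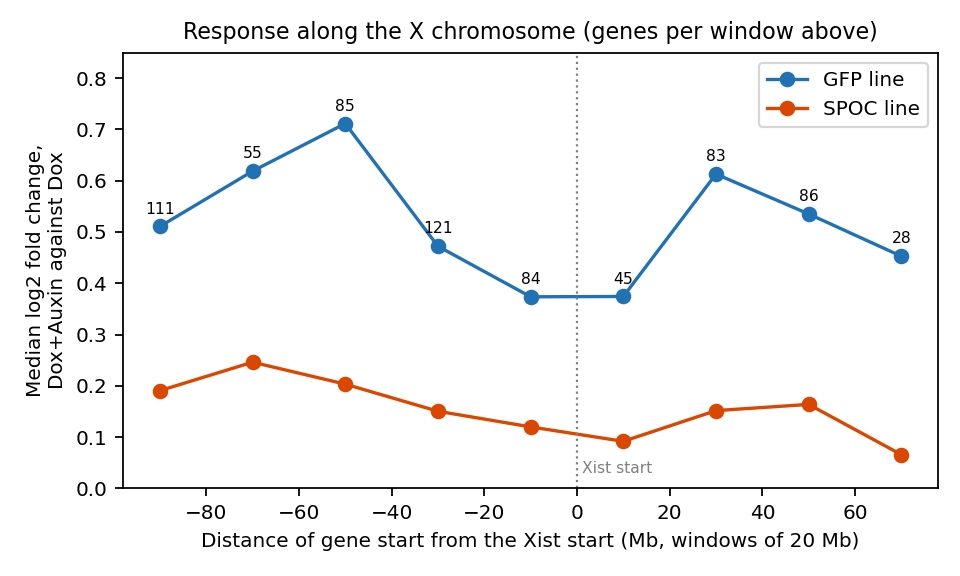
Median log2 fold change upon Dox+Auxin of X-linked genes in windows of 20 Mb by distance from the Xist start (horizontal axis, Mb), in the GFP and SPOC lines, with the number of genes above each window. The SPOC medians lie below the GFP medians in all 9 windows.

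Some genes moved in opposite directions. In 21 genes the response was called in both lines with opposite signs and the line difference was called, 7 of them X-linked and 14 autosomal. Lrch2, an X-linked leucine-rich repeat protein gene, was at 11.2, 11.2, 11.9 and 12.4 CPM in GFP Dox and 18.6, 16.0, 17.9 and 18.6 CPM in GFP Dox+Auxin. SPOC libraries went from 18.1, 16.9, 17.4, 19.7 and 19.1 CPM to 14.8, 14.8, 16.2, 14.6 and 15.8 CPM. It rose by 0.61 in the GFP line and fell by 0.26 in the SPOC line, with no overlap between treatments in either, and the line difference was -0.86 ± 0.086 (SE; edgeR adjusted p = 8.79e-07). Gpr143, a melanosome receptor gene, rose by 0.65 and fell by 0.38. Gpc4, a glypican gene, rose by 0.26 and fell by 0.38. Dmd, the dystrophin gene, rose by 0.12 and fell by 0.21.

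Autosomal genes with a lower response in the SPOC line mostly rose in the GFP line: of 459, 223 rose in both lines, 196 rose in the GFP line only by call, 25 fell in the SPOC line only by call and 10 rose in the GFP line and fell in the SPOC line. The remaining 5 were called in neither. Those taken by size included Cxcl12, Tmem211, H2-Q7, Dll1, Fam69c, Slc40a1, Slc46a3 and Gpr157, from -2.06 to -1.29. Cxcl12, a chemokine gene, had 0.654, 0.910, 0.474 and 0.513 CPM in GFP Dox against 3.87, 4.32, 2.70 and 2.49 CPM in GFP Dox+Auxin. Its SPOC libraries lay at 0.447, 1.20, 0.553, 0.498 and 0.912 CPM with Dox and 1.57, 0.955, 0.825, 0.763 and 0.403 CPM with Dox+Auxin, overlapping each other. The GFP Dox+Auxin libraries were the highest, and the line difference was -2.06 ± 0.46 (SE; edgeR adjusted p = 0.00961). Slc40a1, the iron exporter ferroportin, rose by 1.94 and 0.60. H2-Q7 belongs to a family of near-identical genes and its counts are uncertain.

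Autosomal genes with a higher response in the SPOC line were mostly genes that fell less there. Of 524, 288 fell in both lines, 212 fell in the GFP line only by call, 19 rose in the SPOC line only by call, 4 fell in the GFP line and rose in the SPOC line, and 1 was called in neither. By size they were Vat1l, Nfe2, Atp2a3, Sh3rf2, Pou2f3, Dio3, Allc, Mmp28, Ceacam10 and Inhbb, from 1.41 to 1.02, and all 10 fell in both lines. Nfe2, a basic leucine zipper factor gene of blood cells, was at 5.68, 4.43, 4.55 and 5.35 CPM in GFP Dox and 1.15, 0.999, 1.15 and 1.33 CPM in GFP Dox+Auxin. It was at 5.02, 4.82, 5.42, 5.25 and 4.62 CPM in SPOC Dox and 1.97, 2.95, 4.32, 3.08 and 2.94 CPM in SPOC Dox+Auxin. The lines overlapped with Dox and were apart with Dox+Auxin, with a line difference of 1.38 ± 0.22 (SE; edgeR adjusted p = 0.000325). Of these 524 genes, 333 differed between the lines with Dox+Auxin only and 119 with Dox only. Of the 459 lower genes, 310 differed with Dox+Auxin only and 76 with Dox only.

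Genes of the co-repressor complex were called in both directions. Of 11 tested genes of the NCoR, SMRT and HDAC3 complex list, 2 were lower and 2 higher, and the lower ones, Tbl1x (-0.57) and Zbtb33 (-0.49), are the 2 X-linked members, beside 41.8% lower over the X chromosome. Of the 9 autosomal members 2 were higher and 0 lower, beside 3.03% and 2.65% over autosomal genes. Tbl1x encodes a core subunit of the complex. Of 24 tested SPOC family and Xist silencing factor genes, 1 was higher, Dido1 (0.24), which encodes another protein with a SPOC domain, and 0 were lower. At an unadjusted p under 0.05 there were 9 of the 24, beside 3402 of 17297 autosomal genes. The DESeq2 Wald test called 5, Spen among them.

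Target genes of the Notch list are repressed by RBPJ with SPEN when the pathway is off. Of its 25 tested members 12 rose and 3 fell in GFP cells, and 7 rose and 6 fell in SPOC cells. Over autosomal genes 21.9% rose and 23.9% fell in the GFP line, and 14.4% rose and 15.8% fell in the SPOC line. In the line difference 5 of the list's 24 autosomal members were lower and 1 higher, beside 2.65% and 3.03% over autosomal genes. Its X-linked member, Fhl1, was lower (-0.54), beside 41.8% over the X chromosome. The median over the list was -0.07, beside -0.00 over autosomal genes. Jag1, a Notch ligand gene, was at 40.7, 40.4, 42.4 and 41.5 CPM in GFP Dox and 82.7, 79.2, 77.0 and 80.0 CPM in GFP Dox+Auxin. In the SPOC line it went from 45.3, 43.3, 42.0, 40.9 and 41.9 CPM to 69.6, 68.4, 64.6, 70.4 and 64.8 CPM. It rose in both lines, further in the GFP line, with a line difference of -0.29 ± 0.054 (SE; edgeR adjusted p = 0.00159). Dll1, another ligand gene, was at 1.28, 1.29, 0.837 and 0.545 CPM in GFP Dox, 2.17, 1.39, 1.86 and 1.30 CPM in GFP Dox+Auxin, 0.516, 1.39, 0.873, 1.53 and 0.912 CPM in SPOC Dox, and 0.638, 0.702, 0.370, 0.470 and 0.372 CPM in SPOC Dox+Auxin. The lines were apart with Dox+Auxin only, and the line difference was -1.78 ± 0.41 (SE; edgeR adjusted p = 0.00937).

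The Notch target genes Hey1 (-0.68, edgeR adjusted p = 0.0354), Hey2 (-0.90, 0.0456) and Nrarp (-0.35, 0.0407) were close to the threshold. Other target genes on the list were not called: Hes1 (0.18, edgeR adjusted p = 0.207), Hes5 (0.51, 0.672) and Dtx1 (-0.21, 0.445). In the GFP line Hes1 fell by 0.29 (edgeR adjusted p = 0.000584), while Hey1, Hey2 and Nrarp rose by 1.22, 0.61 and 1.02. Hey1 lost its call without any of SPOC Dox replicates 2, 4 and 5, SPOC Dox+Auxin replicate 5, GFP Dox replicates 1, 3 and 4 and GFP Dox+Auxin replicates 1, 2 and 3, with edgeR adjusted p up to 0.0798. Among the fits without 1 library, Hey2 kept its call only without SPOC Dox replicate 3, SPOC Dox+Auxin replicate 4 or GFP Dox+Auxin replicate 4, and its edgeR adjusted p rose to 0.105 without GFP Dox replicate 2. It was also not called without the low-count filter (edgeR adjusted p = 0.158) or in the fits with untreated libraries (edgeR adjusted p = 0.0853 and 0.0899). In those fits Nrarp kept its call only without SPOC Dox replicate 2, SPOC Dox+Auxin replicates 1 or 5 or GFP Dox replicate 1, and its edgeR adjusted p rose to 0.0886 without GFP Dox replicate 4. It was also not called without the low-count filter (edgeR adjusted p = 0.175) or with the DESeq2 Wald test (adjusted p = 0.0508). Nrarp, a feedback inhibitor, lay at 9.20, 9.12, 9.21 and 9.28 CPM in GFP Dox+Auxin and 6.90, 6.54, 6.25, 6.55 and 6.82 CPM in SPOC Dox+Auxin, with no overlap. Id3, a helix-loop-helix inhibitor gene that other pathways also induce, was the higher one (0.73, edgeR adjusted p = 0.0134).

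In the activin and Nodal list 2 of 20 tested members were lower and 1 higher. The counts of this list and of those that follow stand beside 2.65% lower and 3.03% higher over autosomal genes, and beside 41.8% lower over the X chromosome for their X-linked members. Inhbb, the activin beta B subunit gene, was at 12.1, 12.7, 12.1 and 12.9 CPM in GFP Dox and 2.04, 2.13, 2.00 and 2.01 CPM in GFP Dox+Auxin. It was at 9.08, 9.44, 9.14, 9.04 and 7.93 CPM in SPOC Dox and 2.58, 2.83, 3.44, 3.44 and 2.60 CPM in SPOC Dox+Auxin. Both SPOC groups lay between the GFP groups without overlap, with a line difference of 1.02 ± 0.13 (SE; edgeR adjusted p = 2.03e-05). Lefty1, a Nodal antagonist gene, was at 32.2, 39.0, 39.0 and 31.2 CPM in GFP Dox and 93.3, 95.7, 103 and 80.3 CPM in GFP Dox+Auxin. It was at 62.9, 70.0, 43.4, 63.4 and 71.2 CPM in SPOC Dox and 95.1, 90.7, 60.0, 75.7 and 81.1 CPM in SPOC Dox+Auxin. The lines were apart with Dox only, and the line difference was -1.02 ± 0.21 (SE; edgeR adjusted p = 0.00948). Nodal itself was not called (0.13, edgeR adjusted p = 0.172).

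Formative and primed pluripotency genes gave 5 higher and 2 lower of 20 tested, with Sox3 among the lower ones. Of the 17 autosomal members 5 were higher and 0 lower. The median line difference over the list was -0.0066. Of its 13 members not called, 8 had a negative value, among them Otx2 (-1.02, edgeR adjusted p = 0.0795) and Pou3f1 (-0.26, edgeR adjusted p = 0.128). Otx2 rose by 1.17 in GFP cells (edgeR adjusted p = 0.00109). Among the higher members, Dusp6 also counts in the ERK list and Dnmt3b in that of DNA methyltransferase and TET genes. Foxd3, a forkhead factor gene, was at 59.5, 56.4, 58.5 and 61.3 CPM in GFP Dox and 16.8, 16.9, 18.6 and 19.4 CPM in GFP Dox+Auxin. In the SPOC line it went from 62.3, 56.8, 67.2, 63.8 and 61.3 CPM to 31.0, 31.2, 43.7, 38.0 and 41.1 CPM. It fell in both lines from overlapping levels and fell less in the SPOC line, with a line difference of 0.96 ± 0.12 (SE; edgeR adjusted p = 4.24e-05). Dnmt3b, a DNA methyltransferase gene, converged instead. It was at 338, 351, 345 and 348 CPM in GFP Dox and 250.2, 237.8, 230.3, 239.6 and 239 CPM in SPOC Dox, and at 145, 143, 142 and 164 CPM in GFP Dox+Auxin and 145, 134, 133, 154 and 132 CPM in SPOC Dox+Auxin. The lines were apart with Dox and overlapped with Dox+Auxin, and the line difference was 0.44 ± 0.063 (SE; edgeR adjusted p = 9.48e-05). Of 22 naive pluripotency genes 2 were higher and 0 lower. Nr5a2, a nuclear receptor gene, had a line difference of 0.34, whereas Pou5f1 (0.12, edgeR adjusted p = 0.139) and Nanog (0.06, edgeR adjusted p = 0.449) were not called.

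Feedback genes of the ERK pathway had 2 of 16 tested members higher and 1 lower. The medium held a MEK inhibitor in all groups. Dusp6, an ERK phosphatase gene, was at 8.15, 7.93, 8.34 and 10.4 CPM in GFP Dox and 1.73, 1.80, 1.91 and 1.87 CPM in GFP Dox+Auxin. It was at 6.30, 6.88, 7.05, 8.07 and 8.21 CPM in SPOC Dox and 2.64, 2.13, 3.35, 2.29 and 2.63 CPM in SPOC Dox+Auxin. The lines overlapped with Dox and were apart with Dox+Auxin, with a line difference of 0.76 ± 0.17 (SE; edgeR adjusted p = 0.00887). Dusp4, a related phosphatase gene, went the other way, at -0.84 ± 0.19 (SE; edgeR adjusted p = 0.0089). Of 20 Wnt target genes 1 was lower, the receptor gene Fzd7 (-0.46), and 0 were higher. Cholesterol synthesis genes had 4 of 23 lower and 0 higher: 2 of 21 autosomal members, among them Cyp51 (-0.31), and the 2 X-linked members Ebp (-0.36) and Nsdhl (-0.45).

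Other large responses had no called difference. Cyp1a1, the textbook target of the aryl hydrocarbon receptor, rose by 4.60 (GFP line) and 4.64 (SPOC line), a line difference of 0.04 ± 0.51 (SE; edgeR adjusted p = 0.976). Its libraries were at 1.37, 1.46, 1.34 and 2.24 CPM in GFP Dox, 38.3, 31.8, 39.9 and 43.8 CPM in GFP Dox+Auxin, 0.963, 1.67, 0.873, 2.16 and 1.09 CPM in SPOC Dox, and 27.8, 25.6, 21.2, 49.98 and 44.4 CPM in SPOC Dox+Auxin. The lines overlapped in both treatments. The part of auxin itself, apart from SPEN loss, in the rise of Cyp1a1 was not tested. Of 12 tested genes of that receptor's list, 2 were higher, Nqo1 (0.34) and Nfe2l2 (0.17), and 0 lower. Of 25 tested genes of the two-cell-like state, 0 were called in either direction by edgeR or by the DESeq2 Wald test and 0 had an unadjusted p under 0.05, while their median response was -1.62 (GFP line) and -1.49 (SPOC line). Zfp352, one of them, had a line difference of 0.22 ± 0.25 (SE; edgeR adjusted p = 0.661). Among the remaining lists, the primitive endoderm and the mesoderm and definitive endoderm genes had 0 called of 15 and 11, with 5 and 1 at an unadjusted p under 0.05 and 2 and 0 called by the DESeq2 Wald test. Over autosomal genes 3402 of 17297 had an unadjusted p under 0.05. Neural genes had 2 higher and 1 lower of 12, trophoblast genes 0 and 1 of 12, fibroblast feeder genes 0 and 1 of 11 and germline genes 0 and 1 of 18. ATF4 target genes had 0 higher and 2 lower of 24, p53 target genes 0 and 3 of 24, and imprinted genes 0 and 2 of 26. Of the lower members of the trophoblast, germline, ATF4 and p53 lists, 1 in each was X-linked. Heat shock genes had 2 higher and 1 lower of 17, cell cycle genes 2 and 0 of 24, and DNA methyltransferase and TET genes 1 and 0 of 9. Interferon response genes had 1 higher and 0 lower of 13, and mitochondrial protein quality control genes 1 and 0 of 15. A p that misses the threshold does not show that the responses were equal.

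**Figure D5:**
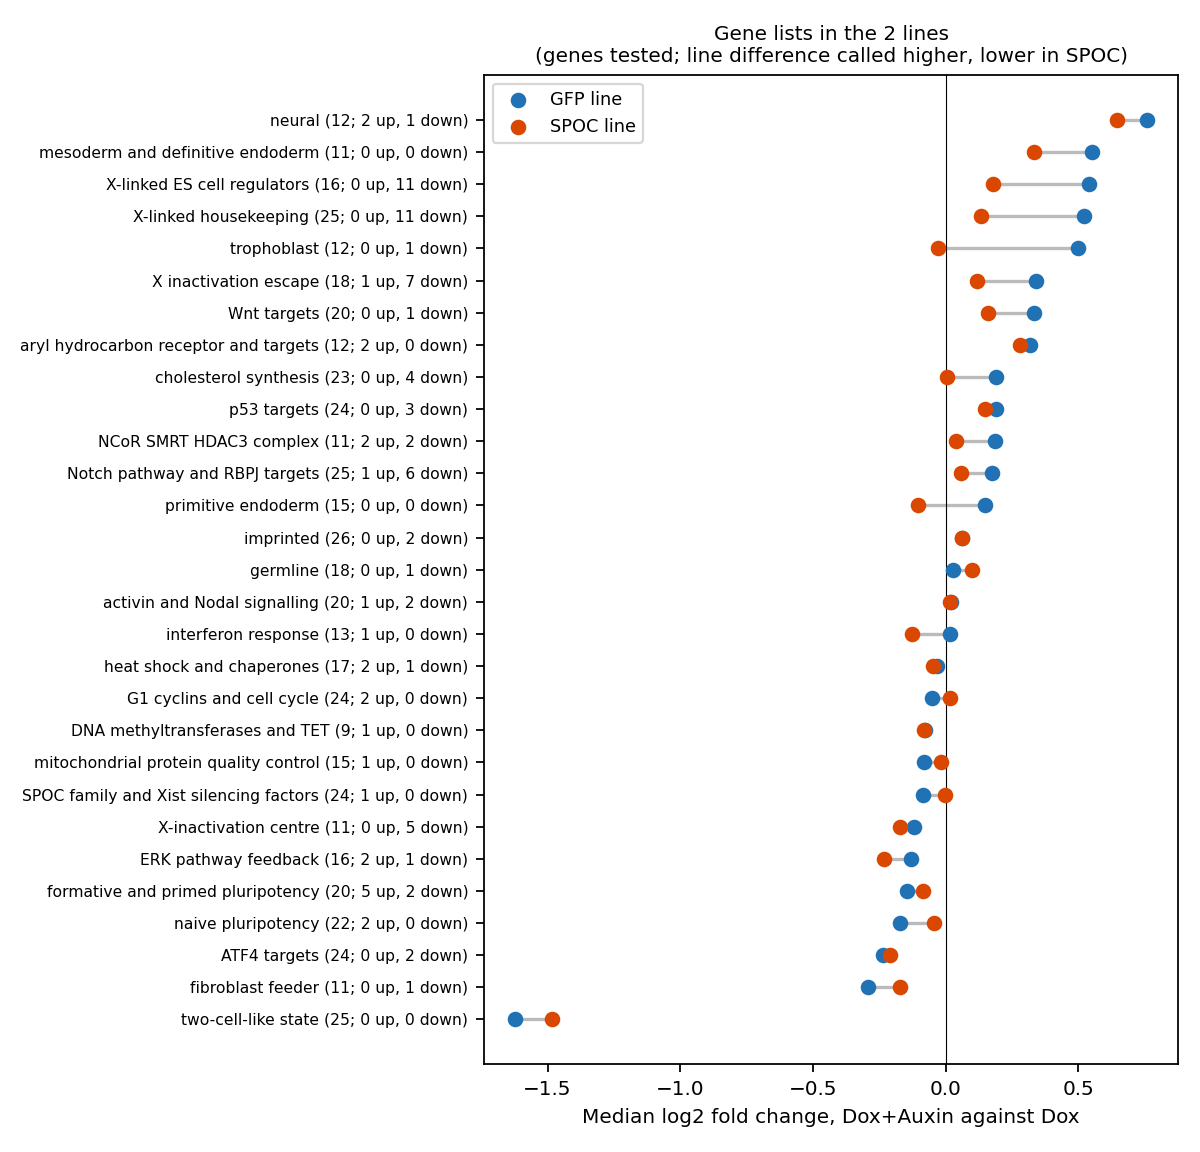
Median log2 fold change upon Dox+Auxin of 29 gene lists in both lines, with the number of genes tested and of genes whose line difference was called higher or lower in the SPOC line. The X-linked housekeeping (0.52 GFP, 0.13 SPOC) and stem cell regulator (0.54, 0.18) lists have lower SPOC medians, the X-inactivation centre list lies at -0.12 and -0.17, and the two-cell-like list at -1.62 and -1.49.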

How the data were processed

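RNA of 18 libraries of TX1072 cells was analysed; the labels' protocols describe paired-end TruSeq libraries from RNA with a RIN above 9, and the design text calls the replicates biological. Of the authors' own steps, the submitters' processing notes list, with no role or order, DESeq2 1.18.1, featureCounts, Picard 2.18.2, STAR 2.5.3a, Trim Galore 0.4.4 and the build mm10. Per the file headers, the deposited table gives, for each library, raw read counts per gene of both alleles together, the unit used here, for 53801 genes. The other 81 columns of per-library values, RPKM and allelic counts, were not used; the names of the allelic columns appeared to disagree with the totals. GENCODE M21 (GRCm38), in which 53706 IDs were found, gave names and positions, and RefSeq (GRCm38.p6) the promoter windows.

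Counts were filtered with filterByExpr to 18019 genes, scaled by TMM and fitted by the robust quasi-likelihood method of edgeR 4.0.16 in R 4.3.3 with 1 term per group, and adjusted by Benjamini-Hochberg over all genes tested, at a threshold of 0.05. Levels are CPM with TMM scaling; X-linked output used log2(CPM + 0.5). The SE is the fold change over the root of F. The contrasts between the lines within each treatment were added after the data had been seen. Named genes are Xist, Tsix, Spen, members of 29 gene lists and the 10 largest differences in each direction, X-linked and autosomal apart, among genes called in all fits at a mean of at least 1 CPM, without predicted, Rik or unnamed genes; genes with opposite responses were chosen after their values were seen. Some genes that this rule selects are not reported here. The samples compared and the lists were chosen with earlier results of these data known. No pair of libraries in a group agreed within sampling noise; SPOC Dox+Auxin replicates 1 and 2 were closest, with a chi-square per gene of 1.76 (6.62 to 13.2 in the group's other pairs). Whether the libraries came from separate cultures is not stated further, so p-values measure the spread between these libraries. On simulated counts of 17791 genes, 54% of line differences of 1.25-fold, 76% of 1.5-fold, 88% of 2-fold and 100% of 4-fold were recovered. Of 166 calls 7 were false. For each size 50 genes at a mean of at least 1 CPM were changed, in SPOC Dox+Auxin only. All other genes were alike in the 4 groups, and libraries were drawn independently. The real data held many more responses, so these rates need not hold there or for genes below 1 CPM. Alternatives were DESeq2 size factors, TMM on autosomal genes, the DESeq2 1.42.0 Wald test, no low-count filter, no robust estimation, fits with the untreated libraries, replicate blocks and each library left out in turn.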

Additional observations from a re-analysis of the deposited data

Results flagged for a closer look

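Some libraries lay apart from the rest of their group: the gap to the nearest of the others was above Dixon's 95% critical value in 7 of 92 groups tested, where chance gives about 1 in 20. X-linked output was -0.316 in GFP Dox replicate 2 (others -0.271 to -0.263). Of the levels in CPM, Ftx was 0.640 in SPOC Dox replicate 2 (others 0.320 to 0.413), and Inhbb 7.93 in SPOC Dox replicate 5 (9.04 to 9.44). Sox3 was 17.4 in GFP Dox+Auxin replicate 4 (19.2 to 19.5), and Dnmt3b 164 there (142 to 145). Dusp6 was 10.4 in GFP Dox replicate 4 (7.93 to 8.34), and Cyp1a1 2.24 there (1.34 to 1.46).

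In 21 genes the responses of the 2 lines were called in opposite directions and the line difference was called in edgeR's test. Given here are the 16 that were also called in all 18 fits without 1 library, at a mean of at least 1 CPM and without a predicted or Rik name. Of the other 5, 3 rose in the GFP line and fell in the SPOC line and 2 did the reverse. X-linked, they were Lrch2 at -0.86, Phka2 at -0.55, Gpc4 at -0.64, Dmd at -0.34, Gpr143 at -1.03, Fhl1 at -0.54 and Otud6a at -0.65, each rising in the GFP line and falling in the SPOC line. Autosomal genes with the same pattern were Rasd2 at -0.96, Phldb1 at -0.33, Gpr157 at -1.29, Cxcl16 at -1.21, Dtna at -0.64, Dll1 at -1.78 and Tmem268 at -0.36. Hsd17b11 at 0.44 and Zic2 at 0.21 fell in the GFP line and rose in the SPOC line.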

How the results depend on the processing

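The X-linked median line difference and the number of X-linked genes lower in the SPOC line kept their direction under every alternative run. The median was -0.33 with the DESeq2 Wald test and between -0.359 and -0.332 with 1 library left out. Higher genes numbered 310 to 836, lower genes 513 to 862, X-linked lower genes 257 to 294 and X-linked higher genes 0 to 3 in those fits, and X-linked higher genes 1 with TMM on autosomal genes and 1 without robust estimation. Libraries of the same number within a line correlated above 0.1 in 5 of 9 pairs, and 11 of 18 correlated best with their own number. In the SPOC line the correlations were -0.05, 0.42, 0.68, 0.35 and 0.36 for replicates 1 to 5. In the GFP line they were 0.097, -0.036, 0.046 and 0.12 for replicates 1 to 4. The numbers thus held part of a pairing, mainly in the SPOC line, which the main fit left out. With a replicate block of line by number 1157 genes were higher, 1460 lower and 5 X-linked genes higher, and with a replicate block of the number alone 934 were higher and 1222 lower. The block of line by number called Xist (0.58, edgeR adjusted p = 0.0205), Nr0b1 (0.15, edgeR adjusted p = 0.0350) and Pou5f1 (0.12, edgeR adjusted p = 0.0313), none of them called in the fit without a block, and lost Hey2 (edgeR adjusted p = 0.0547), and the block of the number alone called Pou5f1 (edgeR adjusted p = 0.0332). Without the low-count filter Tmem211 was not called (edgeR adjusted p = 0.0514). The sign of the Cyp1a1 difference turned with a replicate block of the number alone (-0.00863) and in 7 of 18 fits without 1 library (-0.144 to 0.257 over the 18), and that of Tsix in 1 (-0.00184 to 0.258). The cause was not tested for these. Depth limits genes near 1 CPM, such as Ftx, Cxcl12 and Dll1, whose SE is wide.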
